A study of Mus musculus with 8 samples.

Results

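The interferon-stimulated genes described here were a list of 46 mouse genes, of 34199 genes counted in the series. The list was chosen from genes known as interferon targets, with their levels in all 4 groups of these libraries in view, so the fold changes of its members are given as descriptions and not as tests of whether the list moved. All 46 genes were found in the count tables, and 45 of them were among the 13080 genes that passed the filter on low counts. Only Ifi44 did not pass. A gene could pass on the strength of the 2 libraries in which it was highest, and Ifit3, Mx1, Mx2 and Ifi27l2a passed only through the HOXA9 OFF libraries, while Ifit1, Zbp1, Gbp2 and Oas2 would not have passed on the control libraries alone.

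RNA-seq had been done on immortalized granulocyte-macrophage progenitors (iGMPs), which are C57Bl/6 mouse bone marrow cells with a Lys-GFP reporter that self-renew because they carry HOXA9 fused to the hormone-binding part of the estrogen receptor. All 4 groups carried this fusion and were grown with stem cell factor, and each group had 2 libraries. The uninduced cells were kept in estradiol at 150 ng/ml and harvested at 0 h. The CAF-1 OFF cells kept the estradiol and received IPTG at 500 µM for 48 h to express a short hairpin RNA against Chaf1b, a subunit of the histone chaperone CAF-1. The IPTG-treated control received the same dose for the same 48 h, and the study's methods describe a control vector with a spacer in place of the hairpin. The HOXA9 OFF cells were cultured without estradiol for 48 h, which inactivates the fusion protein and lets the cells mature. The hairpin lines were clones made in 1 immortalized line, so the groups model that line and not bone marrow. The study's supplement describes RNA-seq of these iGMPs from independent subclones. Neither it nor the labels say which library came from which subclone or day. The p-values therefore measure only the spread between libraries within groups, as 1 estimate per gene shared by all 4 groups. That spread was unequal, with a chi-square per degree of freedom between the 2 libraries of 78.2 in HOXA9 OFF and 16.6 to 23.8 in the other groups. Standard errors and FDRs for HOXA9 OFF may thus be too small.

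Interferons are cytokines that cells release after sensing viral or misplaced nucleic acid. Type I interferon binds the receptor pair IFNAR1 and IFNAR2, whose kinases JAK1 and TYK2 phosphorylate STAT proteins. STAT proteins and IRF9 form ISGF3, a factor that binds the interferon-stimulated response element (ISRE) in the promoters of antiviral genes, while the gamma-activated site (GAS) is a second element of interferon-induced promoters. Many of the induced genes are themselves sensors and signalling factors, and progenitor and mature myeloid cells are known to keep some of them on without infection.

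Libraries held 14044284 to 22423837 counts assigned to genes. The level of a gene is given as CPM, its count scaled to the library's total over the tested genes multiplied by its TMM factor. TMM is edgeR's correction for differences in library composition. Its factors were 0.894 and 0.905 in the HOXA9 OFF libraries and 1.01 to 1.06 in the other libraries. On this scale 3 counts, which is the floor used here, corresponded to 0.128 to 0.212 CPM. Chaf1b was at 96.8 and 100.3 CPM in the uninduced libraries, 95.1 and 102 in the IPTG-treated control and 18.7 and 9.72 in CAF-1 OFF, so the CAF-1 OFF labels held in both libraries. It was at 48.3 and 41.0 CPM in HOXA9 OFF. The log2 fold change in CAF-1 OFF was -2.79 ± 0.27 (edgeR quasi-likelihood, FDR 0.00236). The RNA level of Hoxa9 does not test the HOXA9 OFF label, because estradiol withdrawal acts on the protein. IPTG-treated control replicate 1 stood apart from the other 7 libraries in its share of reads outside annotated genes, 14.6% against 5.30% to 7.79%. All 8 markers of granulocyte-macrophage progenitors were above the floor in every group, with a summed level of 10769 to 14847 CPM in uninduced, 16306 to 16351 in CAF-1 OFF and 6140 to 8420 in HOXA9 OFF. Of the markers of other cells, all 8 neutrophil genes were above the floor in every group and summed to 49.6 to 67.4 CPM in uninduced, 1156 to 2040 in CAF-1 OFF and 5476 to 8045 in HOXA9 OFF. In CAF-1 OFF most of that sum was Mmp8, at 1091 and 1937 CPM. The 8 macrophage genes summed to 27.8 to 53.8, 50.6 to 79.5 and 1008 to 1699 CPM in the same groups, with 5, 5 and 7 of them above the floor, and the 8 genes of plasmacytoid dendritic cells, which are specialised interferon producers, to 141 to 203, 147 to 169 and 61.3 to 93.5 CPM, with 4, 5 and 5 above the floor. Siglech and Ccr9, defining genes of the last type, were at 0 in all uninduced, IPTG-treated and CAF-1 OFF libraries. The neutrophil sum was thus above that of the controls in CAF-1 OFF and HOXA9 OFF, the groups in which most interferon-stimulated genes below were higher, while the macrophage sum overlapped the uninduced range in CAF-1 OFF and was above it in HOXA9 OFF. Their part in the values below was not tested. In bulk RNA, more cells expressing a gene and more RNA per cell cannot be told apart.

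A gene was called higher or lower in edgeR's quasi-likelihood test at a false discovery rate (FDR, Benjamini-Hochberg over all 13080 genes) under 0.05 with a change of at least 1.5-fold. In CAF-1 OFF against uninduced cells 26 of the 45 tested members were called higher and none lower, with a median log2 fold change of 1.31. Over all genes tested, 10.5% were called higher and 3.5% lower in that comparison, with a median of 0.01. In CAF-1 OFF against the IPTG-treated control 25 members were called higher and none lower, with a median of 1.57. The shares over all genes were 9.56% and 3.2%. The 25 were also among the 26 called against uninduced cells, and Irf9 was the member called against uninduced cells alone. Both counts include Ifit1, Zbp1, Gbp2 and Oas2, which would not have passed the filter on the control libraries alone. The counts and medians are therefore descriptions and no support. The libraries of CAF-1 OFF lay above both uninduced libraries for 42 of the 45 members, and above both IPTG-treated libraries for 43. Over all genes the corresponding numbers were 4611 and 4625 of 13080. None of the 45 fold changes was below 0 in either comparison.

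The number of calls in CAF-1 OFF depended on which libraries were used. Without uninduced replicate 1 the calls against uninduced cells fell to 2, namely Irf7 and Zbp1. They fell to 8 without uninduced replicate 2 (Ddx58, Dhx58, Dtx3l, Ifih1, Ifitm3, Irf7, Oas3 and Zbp1) and to 6 without CAF-1 OFF replicate 2 (Ddx58, Ifih1, Ifitm3, Irf7, Oas3 and Zbp1). The calls against the IPTG-treated control fell to 6 without CAF-1 OFF replicate 2, to 5 without IPTG-treated control replicate 1 and to 7 without IPTG-treated control replicate 2, and Ddx58, Ifih1, Ifitm3 and Irf7 were among the calls in all 3. Without CAF-1 OFF replicate 1 the calls were 21 against uninduced cells and 19 against the IPTG-treated control, and without HOXA9 OFF replicate 1 they were 32 and 31. Where the counts fell, the calls over all genes fell too, to 1.01% higher without uninduced replicate 1 and to 1.15% higher against the IPTG-treated control without its replicate 2. Zbp1 had 0 counts in uninduced replicate 2, so its call without uninduced replicate 1 rests on a control level of 0 counts. The fold changes moved less. The median over the 45 members against uninduced cells was 1.19 without uninduced replicate 1, 1.65 without uninduced replicate 2 and 1.42 without CAF-1 OFF replicate 2.

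In HOXA9 OFF against uninduced cells 40 of the 45 tested members were called higher and none lower, with a median log2 fold change of 2.68. The 40 include Ifit3, Mx1, Mx2 and Ifi27l2a, which were tested only because they were high in HOXA9 OFF, so the count is a description and no support. Over all genes 25.2% were called higher and 22.1% lower. The HOXA9 OFF libraries lay above both uninduced libraries for 41 members and below them for 3, against 5128 and 5088 of 13080 genes. The split over all genes depended on the scaling, since without TMM normalization, edgeR's correction for differences in library composition, 2715 genes were called higher and 3701 lower in place of 3293 and 2886, and the median of all genes went from 0.01 to -0.18. The member median was 2.49 without it. Leaving out 1 library at a time gave 38 to 42 members called, with a median of 2.95 without HOXA9 OFF replicate 1 and 2.36 without replicate 2. In the IPTG-treated control against uninduced cells edgeR called 0 of the 45 members and 0% of all genes in either direction. No member passed an unadjusted p under 0.05 in that comparison, where 100 genes did, and DESeq2 called 0 members and 5 genes. The summed level of the 46 genes was 988 and 1043 CPM in the uninduced libraries, 966 and 1095 in the IPTG-treated control, 1711 and 1873 in CAF-1 OFF and 2174 and 3148 in HOXA9 OFF.

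**Figure D1:**
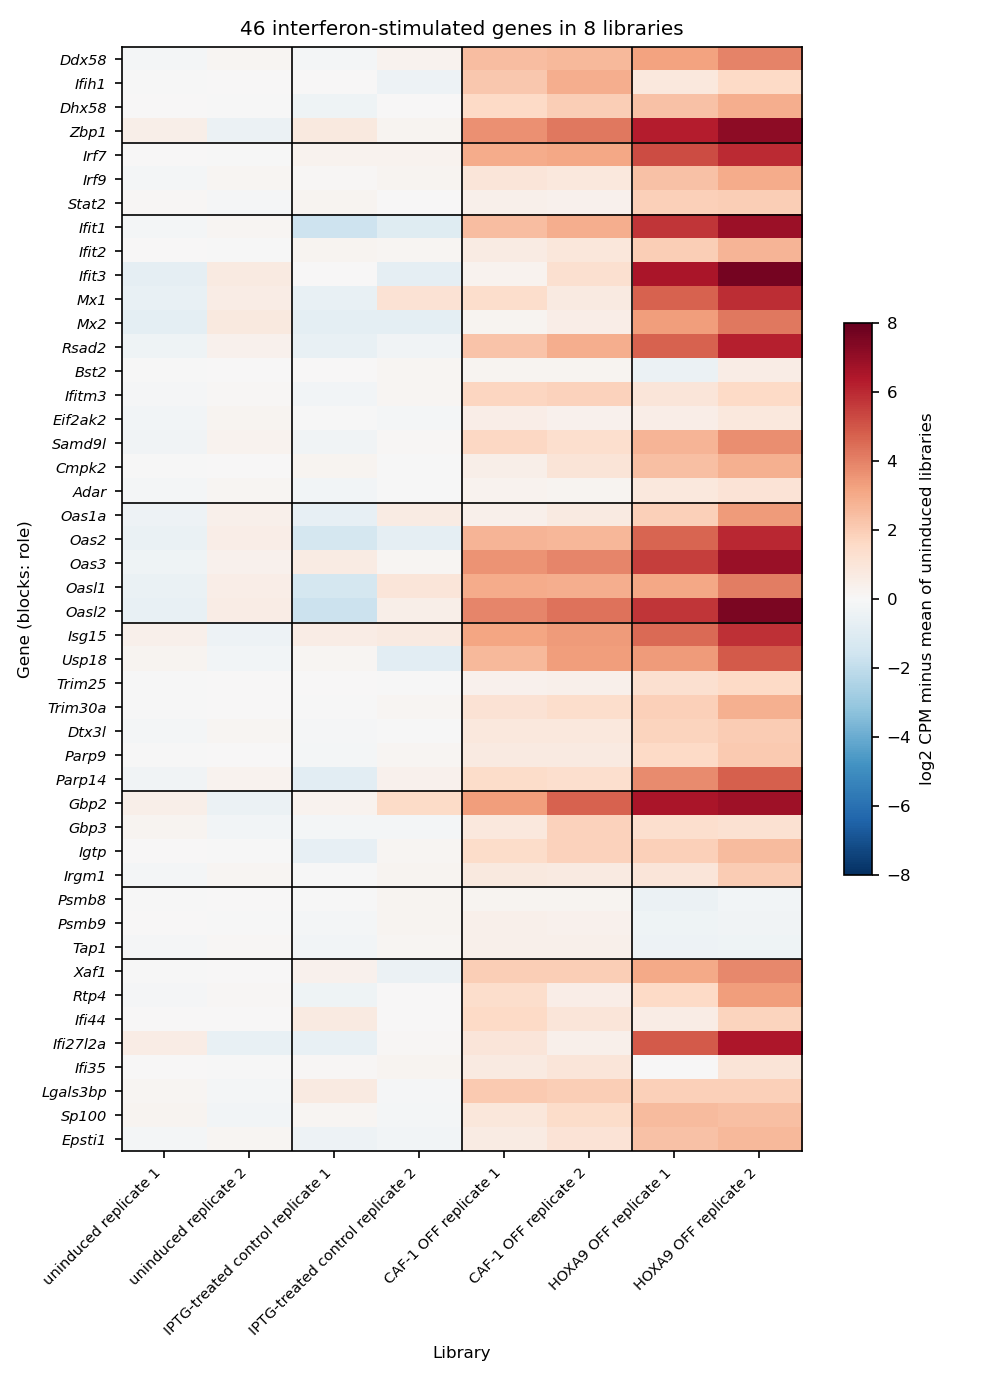
Heat map of the 46 interferon-stimulated genes (rows, in blocks by role in the order of the text) in the 8 libraries (columns). Colour is log2 CPM minus the mean of the 2 uninduced libraries, red for higher and blue for lower. Most rows of the IPTG-treated control were pale, with Oasl2, Ifit1, Oas2, Oasl1, Gbp2 and Mx1 among the exceptions, most rows were red in CAF-1 OFF and darker red in HOXA9 OFF, and the 3 antigen-processing genes stayed pale throughout.

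Promoter sequences are shown for 8 members because they hold the element that defines the family, or lack these letters although the gene is in it. RefSeq start sites on build GRCm38.p6 gave windows of 250 bases before and 50 bases after the start for 36 of the 46 members. The core of an ISRE, the letters GAAA, any 2 bases and a second GAAA, was searched on both strands, and matches were allowed to overlap. At least 1 match was found for 17 of the 36 members, or 47.2%, against 3.99% of 27025 genes with such windows. The GAS letters TTCNNNGAA, which read the same on both strands, were found for 9 of the 36, or 25%, against 9.55% of all genes. The 160 bases before each start follow, 5′ to 3′ on the gene's own strand, with ISRE core matches in capitals; where the match was on the other strand the capitals read TTTC, any 2 bases and TTTC.
Isg15: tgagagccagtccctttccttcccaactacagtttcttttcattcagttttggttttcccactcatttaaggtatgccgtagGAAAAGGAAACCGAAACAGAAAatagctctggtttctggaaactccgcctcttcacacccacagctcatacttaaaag
Ifit1: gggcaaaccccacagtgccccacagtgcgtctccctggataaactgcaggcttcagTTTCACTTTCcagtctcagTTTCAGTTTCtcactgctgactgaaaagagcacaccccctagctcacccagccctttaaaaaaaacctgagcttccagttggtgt
Ifit3: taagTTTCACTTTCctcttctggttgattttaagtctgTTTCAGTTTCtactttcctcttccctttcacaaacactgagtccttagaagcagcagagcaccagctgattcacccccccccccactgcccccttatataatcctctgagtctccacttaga
Rsad2: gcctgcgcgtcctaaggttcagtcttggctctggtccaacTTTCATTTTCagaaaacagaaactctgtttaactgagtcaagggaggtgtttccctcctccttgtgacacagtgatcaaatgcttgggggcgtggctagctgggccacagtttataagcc
Oas1a: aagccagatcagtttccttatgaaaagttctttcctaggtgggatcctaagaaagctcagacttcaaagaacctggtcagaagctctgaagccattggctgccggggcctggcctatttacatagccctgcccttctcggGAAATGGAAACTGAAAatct
Gbp2: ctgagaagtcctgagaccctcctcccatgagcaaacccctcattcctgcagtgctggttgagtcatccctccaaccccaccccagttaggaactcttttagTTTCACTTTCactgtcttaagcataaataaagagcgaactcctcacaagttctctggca
Irf7: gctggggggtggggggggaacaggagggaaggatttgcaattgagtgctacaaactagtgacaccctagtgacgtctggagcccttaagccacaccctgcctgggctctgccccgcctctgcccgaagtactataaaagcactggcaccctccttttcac
Tap1: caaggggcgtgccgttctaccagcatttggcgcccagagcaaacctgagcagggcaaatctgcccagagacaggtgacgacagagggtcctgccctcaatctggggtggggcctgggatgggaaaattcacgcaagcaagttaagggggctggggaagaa

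These windows lay at chr4:156200819-156200978 on the minus strand for Isg15, chr19:34640729-34640888 on the plus strand for Ifit1, chr19:34583369-34583528 on the plus strand for Ifit3 and chr12:26456453-26456612 on the minus strand for Rsad2. Those of Oas1a, Gbp2, Irf7 and Tap1 lay at chr5:120907526-120907685 on the minus strand, chr3:142620503-142620662 on the plus strand, chr7:141266425-141266584 on the minus strand and chr17:34187396-34187555 on the plus strand. Counting back from -1 at the base before the start, Isg15 held 3 overlapping matches from -78 to -57 and Ifit1 held 2 from -104 to -76. Ifit3 held the same pair of matched words as Ifit1, farther out, from -156 to -113. Oas1a held 2 overlapping matches from -20 to -5, Gbp2 held 1 from -59 to -50 and Rsad2 held 1 from -120 to -111. In Ddx58, Ifih1, Ifitm3 and Eif2ak2 all matches lay after the start. In CAF-1 OFF against uninduced cells 11 of the 17 with a match were called higher, with a median log2 fold change of 1.67, and 10 of the 18 tested without a match, with a median of 0.89. In HOXA9 OFF the counts were 16 of 17 and 14 of 18, with medians of 2.47 and 2.44. A match is a description of the letters in the window, and an absent match says nothing about sites elsewhere.

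All 4 sensors of viral nucleic acid were called higher in CAF-1 OFF against both controls and in HOXA9 OFF. Ddx58 encodes RIG-I, the cytosolic receptor for short double-stranded RNA with 5′ triphosphates. It was at 3.78 and 4.88 CPM in the uninduced libraries, 3.82 and 5.21 in the IPTG-treated control, 24.5 and 26.7 in CAF-1 OFF and 40.3 and 68.7 in HOXA9 OFF. Its level did not overlap between the controls, CAF-1 OFF and HOXA9 OFF, and the log2 fold change with its standard error was 2.56 ± 0.29 in CAF-1 OFF and 3.65 ± 0.30 in HOXA9 OFF, both against uninduced cells. Dhx58, which encodes the related regulator LGP2, followed the same order at 7.08 and 6.67, 5.30 and 7.05, 21.3 and 27.2 and 34.8 and 53.3 CPM in uninduced, IPTG-treated control, CAF-1 OFF and HOXA9 OFF.

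Ifih1 broke that order. It encodes MDA5, the receptor for long double-stranded RNA, and was at 17.5 and 17.9 CPM in uninduced, 17.8 and 13.1 in the IPTG-treated control, 78.0 and 135 in CAF-1 OFF and 32.2 and 52.8 in HOXA9 OFF. Both CAF-1 OFF libraries lay above both HOXA9 OFF libraries, with a log2 fold change of 1.33 ± 0.31. Without CAF-1 OFF replicate 2, the higher of that group, the difference was 0.88 and was no longer called. Against uninduced cells it was 2.59 ± 0.33 in CAF-1 OFF and 1.26 ± 0.32 in HOXA9 OFF, and the HOXA9 OFF call was lost without either uninduced library, at 1.24 and 1.28. Zbp1, a sensor of Z-form nucleic acid that can start necroptosis, was close to silent in the controls. It had 2 and 0 counts in the uninduced libraries and 2 and 1 in the IPTG-treated control, against 32 and 49 in CAF-1 OFF and 204 and 412 in HOXA9 OFF. The ratio of summed CPM to uninduced was 48.7 in CAF-1 OFF (95% counting interval 13.1 to 409) and 366 in HOXA9 OFF (101 to 3028).

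The 3 transcription factors separated. Irf7, the factor that amplifies type I interferon production, was at 0.890 and 0.813 CPM in uninduced, 1.06 and 1.04 in the IPTG-treated control, 7.53 and 8.05 in CAF-1 OFF and 35.2 and 59.5 in HOXA9 OFF. No group overlapped the next, and the log2 fold change was 3.18 ± 0.30 in CAF-1 OFF and 5.79 ± 0.32 in HOXA9 OFF. The call in CAF-1 OFF held whichever library was left out. Irf9 and Stat2 encode subunits of ISGF3, and both moved far less in CAF-1 OFF than Irf7. Irf9 was at 8.19 and 9.84 CPM in uninduced, 9.61 and 10.7 in the IPTG-treated control, 17.6 and 16.1 in CAF-1 OFF and 46.3 and 69.7 in HOXA9 OFF. Its log2 fold change in CAF-1 OFF was 0.90 ± 0.22 against uninduced cells, which was called, and 0.73 ± 0.22 against the IPTG-treated control, which was not. Stat2 was at 23.5 and 21.2, 25.5 and 22.5, 30.3 and 28.2 and 85.2 and 89.1 CPM in the same order. It was not called in CAF-1 OFF, where the log2 fold change was 0.39 ± 0.12, and was called in HOXA9 OFF at 1.96 ± 0.12.

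**Figure D2:**
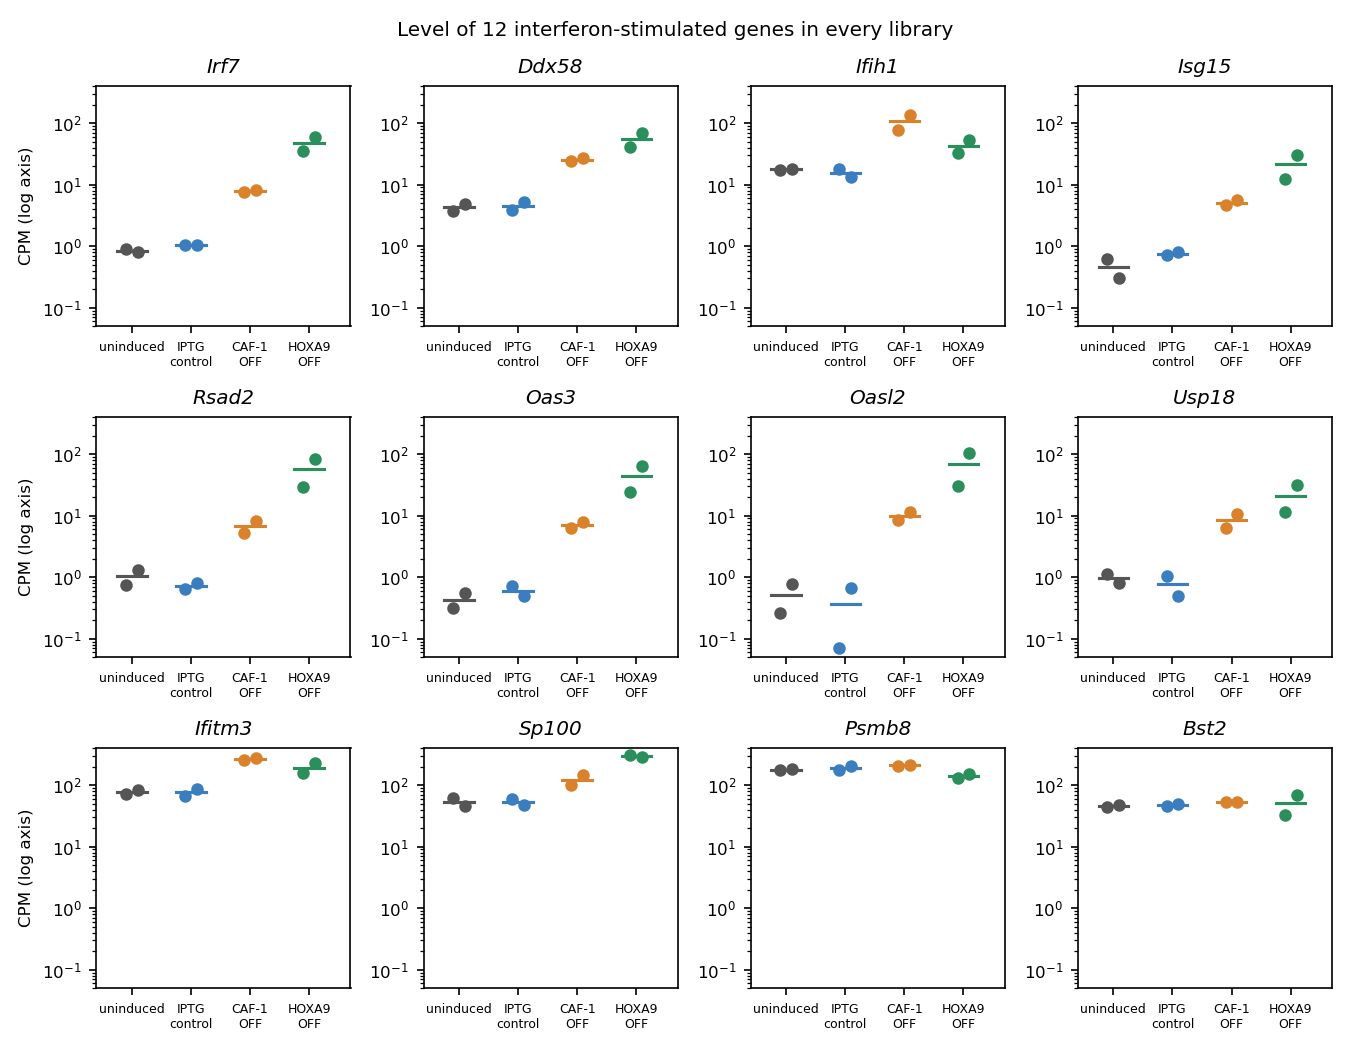
Level of 12 interferon-stimulated genes in each library, in CPM on a log axis. Points are the 2 libraries of a group and bars are their mean. Irf7 rose from below 1.1 CPM in the controls to between 7 and 9 in CAF-1 OFF and above 35 in HOXA9 OFF, Ifih1 was highest in CAF-1 OFF, and Psmb8 lay between 131 and 210.4 CPM in all libraries.

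Of the 12 antiviral effectors, 4 were called higher in CAF-1 OFF against uninduced cells and 11 in HOXA9 OFF, where Ifit3, Mx1 and Mx2 were tested only because they were high there. The 3 genes of the Ifit cluster on chromosome 19 encode proteins that bind foreign RNA, and they differed in CAF-1 OFF. Ifit1 was at 0.401 and 0.513 CPM in uninduced, 0.0707 and 0.184 in the IPTG-treated control, 3.05 and 4.03 in CAF-1 OFF and 29.1 and 64.9 in HOXA9 OFF, with log2 fold changes of 2.93 ± 0.48 and 6.66 ± 0.50 against uninduced cells. Ifit2, which was already present, was at 16.2 and 15.9, 18.9 and 18.1, 25.8 and 30.3 and 62.6 and 108 CPM in the same order. It was not called in CAF-1 OFF. Ifit3 had 2 and 6 counts in CAF-1 OFF, against 0 and 4 in uninduced, and 290 and 676 in HOXA9 OFF. The promoter of Ifit3 holds the same ISRE core words as that of Ifit1, printed above, and the genes lie 52139 bases apart on mm9. Only 48.5% of the 50-base words in the exons of Ifit3 are unique to it among annotated protein-coding genes, the others being shared with I830012O16Rik, so its counts are uncertain where reads map to both.

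Rsad2 encodes viperin, a radical SAM enzyme that blocks viral RNA synthesis. It was at 0.757 and 1.33 CPM in uninduced, 0.636 and 0.797 in the IPTG-treated control, 5.21 and 8.26 in CAF-1 OFF and 29.6 and 83.5 in HOXA9 OFF, and it was called in each condition. Its neighbour Cmpk2, a mitochondrial nucleotide kinase gene 12751 bases away on mm9 and read in the other direction, was at 8.28 and 8.90, 10.0 and 8.34, 11.9 and 17.7 and 45.4 and 63.0 CPM. Cmpk2 was called in HOXA9 OFF, with a log2 fold change of 2.66 ± 0.25, but not in CAF-1 OFF, at 0.79 ± 0.24.

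Mx1 and Mx2 encode dynamin-like GTPases that trap viral particles, and Mx1 is known to carry a disabling deletion in C57BL/6 mice. Mx1 had 0 and 3 counts in uninduced, 0 and 4 in the IPTG-treated control, 6 and 3 in CAF-1 OFF and 75 and 183 in HOXA9 OFF. Its ratio to uninduced was 3.61 in CAF-1 OFF, with a counting interval of 0.900 to 20.7, and 102 in HOXA9 OFF, with an interval of 34.6 to 499. Mx2 had 0 and 5, 0 and 0, 2 and 3, and 32 and 67 counts in the same order. At this depth neither gene differed detectably between CAF-1 OFF and its controls.

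Ifitm3, which encodes a membrane protein that blocks viral entry, had the highest level per exon length of the 46 genes in all 4 groups. Its mean was 114 CPM per kilobase in uninduced and in the IPTG-treated control, 393 in CAF-1 OFF and 283 in HOXA9 OFF. As CPM it was at 72.2 and 82.6 in uninduced, 66.2 and 88.0 in the IPTG-treated control, 253 and 279.5 in CAF-1 OFF and 154 and 229 in HOXA9 OFF. Both CAF-1 OFF libraries were thus above both HOXA9 OFF libraries, but the log2 difference of 0.47 ± 0.20 was not called, except without TMM normalization or without HOXA9 OFF replicate 2. Samd9l, a gene for a translation repressor, was at 4.01 and 6.12, 4.03 and 5.40, 15.5 and 12.5 and 33.5 and 65.5 CPM and was called in both conditions.

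Bst2, Eif2ak2 and Adar were already present in the controls, and none of them was called in CAF-1 OFF. Bst2, the gene for tetherin, was at 43.8 and 46.6 CPM in uninduced, 45.4 and 50.1 in the IPTG-treated control, 53.5 and 52.6 in CAF-1 OFF and 32.8 and 69.3 in HOXA9 OFF, and it was called in no comparison. Its HOXA9 OFF libraries lay on either side of the uninduced ones. Eif2ak2 encodes PKR, the kinase that stops translation on double-stranded RNA, and Adar the enzyme that edits adenosine in such RNA. They were called in HOXA9 OFF alone, with log2 fold changes of 0.69 ± 0.16 and 0.98 ± 0.14, against 0.42 ± 0.16 and 0.23 ± 0.14 in CAF-1 OFF. The Eif2ak2 call was lost without TMM normalization, without HOXA9 OFF replicate 2 and without uninduced replicate 1.

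The oligoadenylate synthetase family makes the second messenger that activates RNase L. All 5 members were called in HOXA9 OFF, and all but Oas1a in CAF-1 OFF against both controls. The summed level of the family was 4.54 and 8.77 CPM in uninduced, 3.60 and 10.1 in the IPTG-treated control, 34.7 and 39.99 in CAF-1 OFF and 93.1 and 266 in HOXA9 OFF. Oas3 was at 0.312 and 0.556 CPM in uninduced, 0.707 and 0.491 in the IPTG-treated control, 6.32 and 7.79 in CAF-1 OFF and 23.8 and 63.4 in HOXA9 OFF, which was 16.0-fold and 98.7-fold above uninduced cells in the fit. Oas2, 3244 bases from Oas3 on mm9, was at 0.223 and 0.556, 0.0707 and 0.184, 2.95 and 2.88 and 11.6 and 30.6 CPM. Both genes were called in both conditions.

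Oasl1 and Oasl2 encode family members that are best known for a ubiquitin-like domain. Oasl2 was at 0.267 and 0.770 CPM in uninduced, 0.0707 and 0.675 in the IPTG-treated control, 8.42 and 11.4 in CAF-1 OFF and 30.6 and 106 in HOXA9 OFF, a log2 fold change of 4.23 ± 0.81 in CAF-1 OFF and 7.01 ± 0.84 in HOXA9 OFF. Oasl1, its neighbour, was at 0.979 and 2.14, 0.495 and 2.88, 12.1 and 11.8 and 13.3 and 27.0 CPM, so that CAF-1 OFF came close to HOXA9 OFF. The log2 difference of Oasl1 between them was -0.76 ± 0.62 and was not called. Oas1a was at 2.76 and 4.75, 2.26 and 5.89, 4.90 and 6.12 and 13.8 and 39.1 CPM in the same order, and its libraries in CAF-1 OFF and the IPTG-treated control overlapped. Just 42.9% of its 50-base exon words are unique, the rest being shared with Oas1g and Oas1b, so its counts are uncertain.

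Isg15 encodes a ubiquitin-like modifier and Usp18 the protease that removes it and damps interferon signalling. Isg15 was at 0.623 and 0.299 CPM in uninduced, 0.707 and 0.797 in the IPTG-treated control, 4.63 and 5.59 in CAF-1 OFF and 12.4 and 30.7 in HOXA9 OFF. The log2 fold change of Isg15 from uninduced cells was 3.46 ± 0.54 in CAF-1 OFF and 5.53 ± 0.55 in HOXA9 OFF. Per kilobase of exon Isg15 ranked 28 of the 46 genes in uninduced cells and 6 in HOXA9 OFF, where its mean was 28.5 CPM per kilobase, with 16.4 and 40.6 in the 2 libraries. Usp18 was at 1.11 and 0.813, 1.06 and 0.491, 6.26 and 10.8 and 11.3 and 31.1 CPM. It was called in both conditions, and the log2 difference of -1.32 ± 0.51 between CAF-1 OFF and HOXA9 OFF was not called.

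Trim30a, Dtx3l and Parp9 were called in CAF-1 OFF against both controls with smaller changes. Trim30a, a gene for a ubiquitin ligase of the tripartite motif family, was at 16.5 and 17.3 CPM in uninduced, 16.7 and 19.2 in the IPTG-treated control, 38.2 and 45.5 in CAF-1 OFF and 64.2 and 123 in HOXA9 OFF. Dtx3l and Parp9 encode a ubiquitin ligase and its ADP-ribosyltransferase partner, and their annotated spans overlap by 682 bases on opposite strands. Dtx3l was at 16.6 and 21.3, 17.7 and 18.4, 34.5 and 34.5 and 65.6 and 75.7 CPM in the same order, and Parp9 changed by 0.73 ± 0.20 in CAF-1 OFF and 1.88 ± 0.20 in HOXA9 OFF on the log2 scale. The strand setting of the counting is not given in the sources used here. Reads from the overlap may therefore have been left out as ambiguous or counted for the wrong gene.

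Parp14, another ADP-ribosyltransferase gene 54966 bases from Dtx3l, was at 2.23 and 3.47 CPM in uninduced, 1.48 and 3.56 in the IPTG-treated control, 7.74 and 7.21 in CAF-1 OFF and 38.9 and 78.9 in HOXA9 OFF. Both CAF-1 OFF libraries were above all 4 control libraries, but the log2 change of 1.39 ± 0.45 was not called. Trim25, the ligase that activates RIG-I, was not called in CAF-1 OFF either, at 0.37 ± 0.12, and was called in HOXA9 OFF at 1.43 ± 0.12.

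The 4 interferon-inducible GTPases, which attack the vacuoles of intracellular parasites and bacteria, were all called in HOXA9 OFF. Gbp2, Gbp3 and Igtp were also called in CAF-1 OFF against both controls. Gbp2 had 2 and 0 counts in uninduced, 1 and 5 in the IPTG-treated control, 25 and 69 in CAF-1 OFF and 245 and 315 in HOXA9 OFF. Its ratio to uninduced was 56.5 in CAF-1 OFF (95% counting interval 15.2 to 473) and 333 in HOXA9 OFF (91.6 to 2753). Gbp3, 47392 bases away on mm9, did not separate the conditions. It was at 3.34 and 2.52 CPM in uninduced, 2.54 and 2.58 in the IPTG-treated control, 5.21 and 10.8 in CAF-1 OFF and 7.38 and 6.99 in HOXA9 OFF, with a log2 difference between the last 2 groups of 0.15 ± 0.35. The HOXA9 OFF call of Gbp3 was lost without uninduced replicate 2, at 1.10. Its CAF-1 OFF calls were lost without CAF-1 OFF replicate 2, at 0.83 against uninduced cells and 1.02 against the IPTG-treated control. They were also lost without either library of the control compared. Igtp, also known as Irgm3, was at 4.85 and 4.75, 3.04 and 5.34, 13.3 and 17.2 and 18.5 and 28.9 CPM. Irgm1 was called in HOXA9 OFF alone, at 1.58 ± 0.31, against 0.75 ± 0.31 in CAF-1 OFF.

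The antigen-processing genes were the exception in the list. Psmb8 and Psmb9 encode immunoproteasome subunits and Tap1 a subunit of the peptide transporter of MHC class I loading, and the 3 genes lie together on chromosome 17. They were among the 5 members with the highest level per exon length in uninduced cells, together with Ifitm3 and Bst2. None of the 3 was called against uninduced cells in either condition. Psmb8 was at 175 and 182 CPM in uninduced, 177 and 204 in the IPTG-treated control, 206 and 210.4 in CAF-1 OFF and 131 and 150.3 in HOXA9 OFF. Psmb9 was at 112 and 106, 98.7 and 124, 146 and 141 and 86.6 and 89.4 CPM in the same order, and Tap1 at 167 and 184, 154 and 197, 235 and 230.3 and 129.6 and 136. All 3 were above both uninduced libraries in CAF-1 OFF and below both in HOXA9 OFF, where the log2 fold changes were -0.34 ± 0.11, -0.30 ± 0.12 and -0.40 ± 0.13. These 3 were the members below the uninduced libraries in HOXA9 OFF, and in the direct comparison Psmb9 and Tap1 were called higher in CAF-1 OFF. Psmb9 and Tap1 overlap by 212 bases on opposite strands, and reads there cannot be assigned without the strand setting.

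Of the remaining 8 genes, Sp100, Xaf1, Lgals3bp and Epsti1 were called in CAF-1 OFF against both controls. Sp100, a component of PML nuclear bodies, was at 61.6 and 45.1 CPM in uninduced, 58.6 and 48.1 in the IPTG-treated control, 101 and 143 in CAF-1 OFF and 311 and 285 in HOXA9 OFF, without overlap between CAF-1 OFF and either neighbour. Lgals3bp, a gene for a secreted galectin-binding glycoprotein, was at 1.87 and 1.54, 2.90 and 1.59, 7.69 and 6.95 and 6.57 and 6.70 CPM, with both CAF-1 OFF libraries just above both of HOXA9 OFF. Xaf1, a pro-apoptotic gene, was at 0.623 and 0.642, 0.848 and 0.429, 2.84 and 2.72 and 5.97 and 10.4 CPM. Epsti1 had log2 fold changes of 0.91 ± 0.22 in CAF-1 OFF and 2.48 ± 0.22 in HOXA9 OFF.

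Ifi27l2a was detected well above the floor in HOXA9 OFF alone. It encodes a small mitochondrial protein, and had 3 and 0 counts in uninduced, 0 and 1 in the IPTG-treated control, 4 and 2 in CAF-1 OFF and 84 and 285 in HOXA9 OFF. Its exons overlap those of Ifi27l2b for 46.4% of their length, so its counts are uncertain. Rtp4, a gene for a chaperone of membrane receptors, was at 3.69 and 4.06, 2.97 and 4.05, 10.4 and 5.59 and 11.8 and 40.4 CPM and was called in HOXA9 OFF alone. Ifi35 was called in neither condition, with log2 fold changes of 0.87 ± 0.29 in CAF-1 OFF and 0.61 ± 0.29 in HOXA9 OFF. Ifi44 had 0 counts in both uninduced libraries, 1 and 0 in the IPTG-treated control, 4 and 2 in CAF-1 OFF and 1 and 5 in HOXA9 OFF, and was not tested. In each condition 1 library was below the floor of 3 counts, so no fold change is given for Ifi44.

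**Figure D3:**
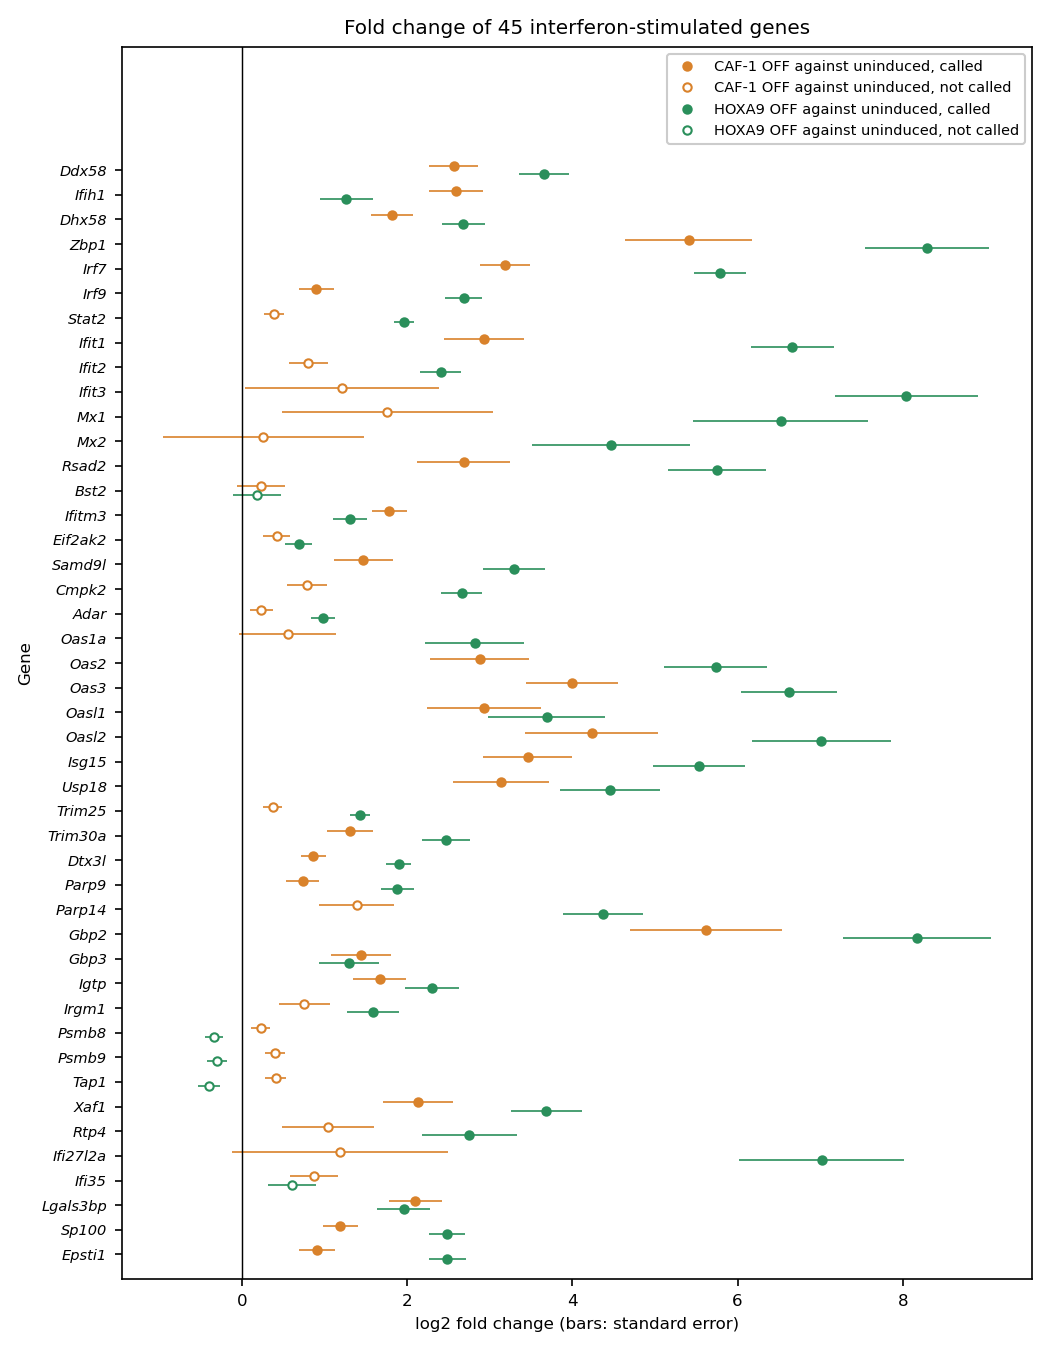
Log2 fold change against uninduced cells of the 45 interferon-stimulated genes tested, with its standard error, in CAF-1 OFF (orange) and HOXA9 OFF (green); filled points were called at FDR under 0.05 and 1.5-fold. HOXA9 OFF lay to the right of CAF-1 OFF for most genes, and the 3 antigen-processing genes lay left of 0 in HOXA9 OFF. Fitted values of Ifit3, Mx1, Mx2, Zbp1, Gbp2 and Ifi27l2a rest on few control counts.

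CAF-1 OFF and HOXA9 OFF were also compared directly. Of the 45 members, 31 were called lower in CAF-1 OFF than in HOXA9 OFF, 3 were called higher and 11 were not called, with a median log2 difference of -1.56. Ifit3, Mx1, Mx2 and Ifi27l2a, tested only because they were high in HOXA9 OFF, are among the 31, so the count and median are descriptions and no support. Over all genes 21.4% were called lower and 22.2% higher. Without TMM normalization 28 members were lower and 5 higher, and over all genes 2064 were lower and 3949 higher in place of 2797 and 2898. The 3 members called higher in CAF-1 OFF were Ifih1, Tap1 and Psmb9, with log2 differences of 1.33 ± 0.31, 0.81 ± 0.13 and 0.71 ± 0.12. Without HOXA9 OFF replicate 2 the number rose to 7, with Bst2, Ifi35, Ifitm3 and Psmb8 added. The members at the low end were Ifit3, Ifi27l2a, Mx1, Mx2 and Ifit1, of which the first 4 were near the floor in CAF-1 OFF. Among members further above it, the lowest log2 differences were -3.73 ± 0.41 for Ifit1, -3.07 ± 0.50 for Rsad2, -2.98 ± 0.45 for Parp14, -2.89 ± 0.50 for Zbp1, -2.86 ± 0.52 for Oas2, -2.78 ± 0.64 for Oasl2, -2.63 ± 0.45 for Oas3 and -2.60 ± 0.26 for Irf7. The members not called included Gbp3, Lgals3bp, Oasl1, Usp18 and Igtp, all called higher against uninduced cells in each condition. Without CAF-1 OFF replicate 1, Ddx58, Dhx58, Mx2, Oas1a, Oasl2, Trim30a and Xaf1 were no longer called lower, with log2 differences of -1.03, -0.70, -3.96, -2.11, -2.57, -1.04 and -1.59. Rtp4 was no longer called without CAF-1 OFF replicate 2, HOXA9 OFF replicate 2 or either uninduced library, and Dhx58, Oas1a and Xaf1 were no longer called without HOXA9 OFF replicate 2. Without CAF-1 OFF replicate 2, the calls of Mx2, Oas1a and Xaf1 were lost as well. A missed call does not show that these levels were alike.

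Within HOXA9 OFF, replicate 2 exceeded replicate 1 for 43 of the 45 tested members. The median ratio of replicate 2 to replicate 1 was 1.72, or 0.78 on the log2 scale. Over all 13080 genes replicate 2 was the higher for 45.1%, with a median of -0.03, and of 48 tested genes of the wider interferon pathway it was the higher for 24. The same count over the members was 30 in uninduced, 30 in the IPTG-treated control and 26 in CAF-1 OFF, with medians of 0.10, 0.20 and 0.12. In replicates 1 and 2 of HOXA9 OFF, Oasl2 was at 30.6 and 106 CPM, Rtp4 at 11.8 and 40.4 and Rsad2 at 29.6 and 83.5. Sp100, Gbp3, Stat2 and Psmb9 were close between these libraries. Marker genes also differed between these libraries, with the neutrophil sum higher in replicate 1 and the macrophage sum higher in replicate 2. The complement gene C1qb was at 0.434 and 121 CPM, Cd68 at 47.3 and 234, and Siglech at 0.109 and 3.87. Other genes of these lists went the other way, with the macrophage gene Emr1 at 494 and 437 CPM and the plasmacytoid dendritic cell gene Runx2 at 45.2 and 31.9. These markers were chosen after their values were seen. Their part in the difference was not tested. In a fit with group and replicate number, edgeR called 0 members between the replicate numbers and 0.0153% of all genes higher in replicate 2. There 14 members passed an unadjusted p under 0.05, and DESeq2 called 3. The fit has 1 replicate effect shared by all 4 groups, so it does not test the difference within HOXA9 OFF.

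**Figure D4:**
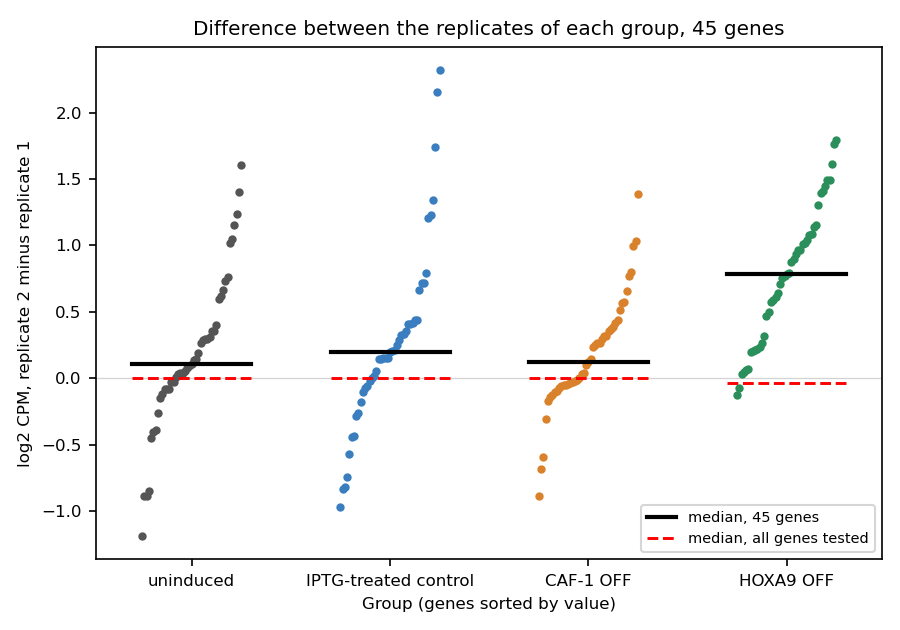
Log2 CPM of replicate 2 minus replicate 1 in each group for the 45 interferon-stimulated genes tested, sorted by value within a group. The black bar is their median and the dashed red line the median of all 13080 genes. The HOXA9 OFF points lay above 0 for 43 of 45 genes, with a median of 0.78, while the medians of the other groups lay between 0.10 and 0.20.

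The rest of the pathway was read from a separate list of 73 genes, of which 71 were in the count tables and 48 passed the filter. In CAF-1 OFF 8 were called higher and 2 lower against uninduced cells, and 7 higher and 0 lower against the IPTG-treated control, where the shares over all genes were 10.5% and 3.5%, and 9.56% and 3.2%. In HOXA9 OFF 32 of the 48 were called higher and 2 lower, against 25.2% and 22.1% of all genes. Tlr7 and Tlr8 passed the filter only through HOXA9 OFF, so their calls there are no support for the counts. All 19 interferon ligand genes in the tables failed the filter. Ifnb1, the gene for interferon beta, had 0.0445 and 0 CPM in uninduced, 0 and 0 in the IPTG-treated control, 0 and 0.0523 in CAF-1 OFF and 0.0543 and 0.0496 in HOXA9 OFF, below the floor in every library. Ifnz had 0.211 CPM in CAF-1 OFF replicate 1, just above its floor of 0.158, and 0 elsewhere, and Ifnab had 0.109 in HOXA9 OFF replicate 1 and 0 elsewhere. Ifng and the 11 listed Ifna genes with a number were at 0 counts in all 8 libraries, and a count of 0 allows up to the 0.128 to 0.212 CPM of the floor, which covers counting error only. Apart from Ifnz in that 1 library, no ligand RNA exceeded the floor at this depth. Reads that did not align uniquely were not counted, so any RNA from sequence shared between ligand genes would be missed.

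Receptor and kinase genes were present in all groups. Ifnar1 was at 83.1 and 101 CPM in uninduced, 90.4 and 98.3 in the IPTG-treated control, 95.8 and 85.0 in CAF-1 OFF and 133 and 156 in HOXA9 OFF, and Ifnar2 at 86.4 and 84.2, 83.2 and 83.1, 74.5 and 69.3 and 135 and 135. No receptor gene was called in CAF-1 OFF, where Ifnar1 changed by -0.03 ± 0.14 and Ifnar2 by -0.25 ± 0.09 on the log2 scale. In HOXA9 OFF 4 of the 5 tested receptor genes were called higher, led by Ifngr2 at 1.79 ± 0.15 (edgeR FDR 4.9e-05). Of the 5 JAK-STAT genes, 2 were called higher in CAF-1 OFF and all 5 in HOXA9 OFF. Stat3, which relays signals of the G-CSF receptor, was at 96.1 and 104 CPM in uninduced, 101 and 107 in the IPTG-treated control, 163 and 179 in CAF-1 OFF and 257 and 243 in HOXA9 OFF. Its log2 fold change was 0.77 ± 0.10 in CAF-1 OFF (edgeR FDR 0.00516) and 1.32 ± 0.10 in HOXA9 OFF (FDR 3.5e-05). Jak1 changed by -0.10 ± 0.12 and 1.12 ± 0.12, and Tyk2 by 0.16 ± 0.11 and 1.28 ± 0.11, in the same order.

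None of the 6 tested Irf genes outside the list of 46 was called in CAF-1 OFF, and 5 were in HOXA9 OFF. Irf3, the constitutive partner of Irf7, was at 60.8 and 56.3 CPM in uninduced, 49.5 and 53.3 in the IPTG-treated control, 49.95 and 42.9 in CAF-1 OFF and 57.9 and 55.8 in HOXA9 OFF, and was called in no comparison. Irf1 changed by 0.51 ± 0.15 in CAF-1 OFF, below the fold threshold, and by 1.43 ± 0.15 in HOXA9 OFF. Irf8, which also directs monocyte and dendritic fate, was at 36.0 and 27.0, 36.1 and 28.8, 39.9 and 86.7 and 134 and 133 CPM, with the 2 CAF-1 OFF libraries far apart. Irf4 was at 0.267 and 0.642 CPM in uninduced, 0.212 and 0.736 in the IPTG-treated control, 0.526 and 0.889 in CAF-1 OFF and 46.1 and 58.8 in HOXA9 OFF. Irf5 was called in HOXA9 OFF, at 2.91 ± 0.20 (edgeR FDR 2.6e-05).

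Of the 8 tested Toll-like receptors of nucleic acid and their adaptors, 7 were called higher in HOXA9 OFF, including Tlr7 and Tlr8, which were tested only because they were high there. In CAF-1 OFF against uninduced cells Ticam1 was called higher, at 0.74 ± 0.14, and Traf6 lower, at -0.67 ± 0.11, and neither was called against the IPTG-treated control. Tlr7 and Tlr9, endosomal receptors for single-stranded RNA and for CpG DNA, were at 38.0 and 90.6 and 21.2 and 38.2 CPM in HOXA9 OFF, against 0 and 0.0523 and 0.263 and 1.10 in CAF-1 OFF. Tlr8, another receptor for single-stranded RNA, had 0 counts in the other 3 groups and was at 18.7 and 19.6 CPM in HOXA9 OFF. Tmem173, which encodes STING, was at 51.5 and 58.9 CPM in uninduced, 54.3 and 54.7 in the IPTG-treated control, 77.7 and 109 in CAF-1 OFF and 110.4 and 96.0 in HOXA9 OFF. It was the single gene of 9 in the cytosolic sensing group called in CAF-1 OFF against either control, with a log2 fold change of 0.76 ± 0.17 against uninduced cells (edgeR FDR 0.0216).

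Of the 10 tested negative regulators, Socs3, Nlrx1 and Tnfaip3 were called higher in CAF-1 OFF against uninduced cells, and 5 were called higher in HOXA9 OFF. Tnfaip3 was not called against the IPTG-treated control. Socs3 was at 1.42 and 1.97 CPM in uninduced, 1.41 and 2.02 in the IPTG-treated control, 6.63 and 7.06 in CAF-1 OFF and 7.22 and 8.78 in HOXA9 OFF. Socs1, the inhibitor most closely tied to interferon receptors, was at 0.890 and 1.07, 0.777 and 0.859, 1.90 and 3.40 and 1.25 and 1.98 CPM and was called against the IPTG-treated control (log2 fold change 1.68 ± 0.45, edgeR FDR 0.0415) but not against uninduced cells (FDR 0.0543). Nlrc5, a regulator that also drives MHC class I genes, was the negative regulator called lower in HOXA9 OFF. It was at 50.4 and 75.3 CPM in uninduced, 56.0 and 63.3 in the IPTG-treated control, 59.4 and 58.1 in CAF-1 OFF and 14.8 and 32.2 in HOXA9 OFF. Among the 5 tested nucleases that limit self nucleic acid, Samhd1 was called higher in both conditions, at 0.76 ± 0.11 and 3.10 ± 0.11, Dnase2a was called lower in CAF-1 OFF against uninduced cells, at -0.67 ± 0.20, and Rnaseh2a was called lower in HOXA9 OFF, at -1.08 ± 0.13.

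**Figure D5:**
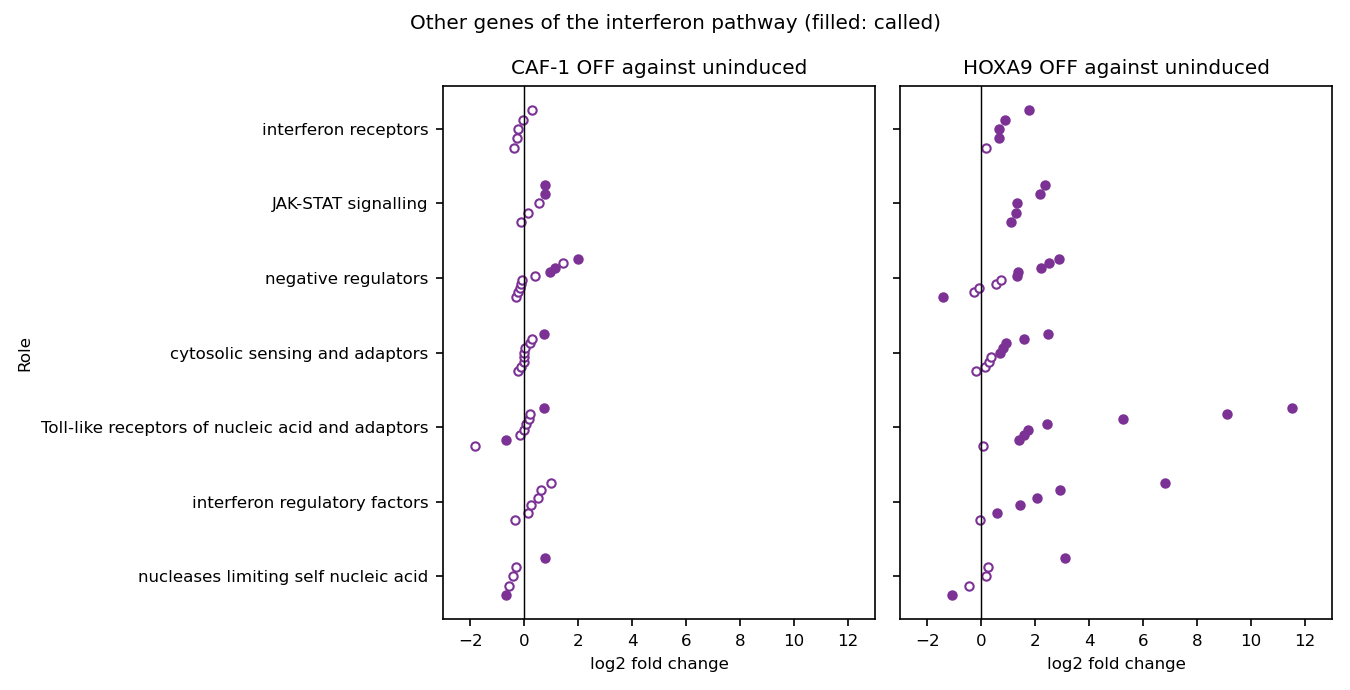
Log2 fold change of 48 other genes of the interferon pathway against uninduced cells, by role, in CAF-1 OFF (left) and HOXA9 OFF (right); each point is a gene and filled points were called. In CAF-1 OFF 8 genes were called higher and most points lay near 0, and in HOXA9 OFF 32 were called higher; the rightmost points, Tlr7 and Tlr8, rest on control counts near or at 0.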

How the data were processed

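Each of the 4 groups had 2 RNA-seq libraries, and all 8 were analysed. Per the labels and methods, total RNA was made into libraries with an NEB kit, and the authors aligned reads to mm9 with STAR and counted them per gene with HTSeq. The deposited values are raw counts per gene symbol, and the strand setting and annotation version are not given in the sources used here. Lines for reads outside genes or not uniquely assigned were left out of library sizes.

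Counts were scaled to CPM for display with the same TMM-adjusted library sizes as in the tests. Tests used edgeR 4.0.16 in R 4.3.3 (filterByExpr, TMM, 1 mean per group, all 8 libraries, quasi-likelihood F-test, Benjamini-Hochberg adjustment), which was also tested on simulated data; DESeq2 1.42.0 was an alternative. The study's thresholds of FDR under 0.05 and 1.5-fold were kept. Standard errors are the log2 fold change divided by the root of F. Intervals cover counting error only. Gene spans, distances and overlaps came from GENCODE vM1 on mm9. Promoter windows came from RefSeq on GRCm38.p6; in 35 of the members' 43 windows, bases after the start were found in a vM1 transcript of the gene.

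The members and the pathway and marker lists were chosen with earlier results of these data known. All 46 members could be named by role, with values for those called in CAF-1 OFF against both controls and for the largest changes in each comparison; of the pathway list, a fixed set of genes and up to 3 called genes per role were named, and 1 gene of that set is not reported here. Genes named outside that rule (Nlrc5, Bst2, Eif2ak2, Adar, Stat2 and other members not called) were chosen after their values were seen.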

Additional observations from a re-analysis of the deposited data

How the results depend on the processing

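The fold changes of called members kept their direction under each alternative run. Over 125 pairs of a member and a comparison and 1869 alternative values, 0 turned sign, 1701 stayed called and 168 were no longer called. The number of members called was less stable. At FDR under 0.01 and 2-fold, 11 were called higher in CAF-1 OFF against uninduced cells, 6 against the IPTG-treated control and 1 against HOXA9 OFF. The shares over all genes were not computed at these thresholds, so these counts have no background beside them. Leaving out 1 library at a time gave 2 to 32 calls against uninduced cells, 5 to 31 against the IPTG-treated control and 2 to 7 higher in CAF-1 OFF than in HOXA9 OFF; a group left with 1 library is assumed to vary like the others. Without TMM normalization 1 member, Tap1, was called lower in HOXA9 OFF and 5 were called higher in CAF-1 OFF than in HOXA9 OFF, and with no fold threshold 2 members were called lower in HOXA9 OFF. Between replicate numbers, 3 members were called with no filter on low counts, 3 by DESeq2 and 0 to 8 with a library left out, the 8 without either CAF-1 OFF library. Same-numbered libraries of 2 groups correlated in their deviations over 13080 genes at 0.48 for uninduced and IPTG-treated control, 0.30 and 0.32 for HOXA9 OFF with these, and -0.04 to 0.08 for CAF-1 OFF with the others, and neither the labels nor the supplement, which mentions independent subclones, say what a number shares. With the replicate block the calls higher were 30 in CAF-1 OFF against uninduced cells, 27 against the IPTG-treated control and 40 in HOXA9 OFF, and 3 higher and 34 lower in CAF-1 OFF against HOXA9 OFF. Over all genes the shares called higher in the first 3 comparisons were 12.2%, 11.1% and 25.7%, in place of 10.5%, 9.56% and 25.2%. In the last comparison 2981 genes were called higher and 2858 lower. With 2 libraries a group, and at most 5 counts in any control library for Zbp1, Gbp2, Mx1, Mx2, Ifit3 and Ifi27l2a, the sizes of the largest changes are known only within wide limits.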
